A study of Mus musculus with 8 samples.

Results

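Aire, Deaf1, Fezf2, Sp100, Sp110 and Sp140 are 6 mouse genes linked by the control of tissue antigens or by the SAND domain, a DNA-binding fold. They were followed here across spleen and lymph node samples that were knockout or wild-type for Aire. The members were every probe set whose only gene symbol in the array's annotation was 1 of these 6. Of 45037 probe sets, 8 met this rule: 1 each for Aire, Deaf1 and Fezf2, 2 for Sp100 and 3 for Sp110. None carried Sp140 as its only symbol, so Sp140 is not analysed here. The groups were Aire-knockout spleen, Aire-wild-type spleen, Aire-knockout lymph node and Aire-wild-type lymph node, with 2 arrays each, lettered A and B. The sources used here give no strain, age, sorting, kind of Aire mutation or number of animals per array. The p-values therefore measure only how far these samples lie apart, which may in part be technical.

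Aire, the autoimmune regulator, acts in medullary epithelial cells of the thymus, where it switches on genes that are otherwise confined to single tissues, so that T cells reactive to their products are removed. Fezf2, a zinc finger factor without a SAND domain, drives a largely separate set of tissue antigens in the same cells. Deaf1 is a SAND-domain transcription factor that has been linked to tissue antigen expression in the stroma of mouse lymph nodes. Sp100, Sp110 and Sp140 form the Speckled protein family, which combines the SAND domain with other chromatin-binding modules and is inducible by interferon. Sp100 is a resident of PML nuclear bodies, and Sp110 has been proposed, in mice, as a modifier of macrophage resistance to mycobacteria. The title of the series places its question in Aire-expressing cells beyond the thymus.

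The promoters are shown for Aire, whose level differed most, and for Sp100 and Sp110, which sit beside each other on chromosome 1, separated by Sp140, and are the measured interferon-inducible members. In the RefSeq annotation Sp110 and Sp140 overlap on opposite strands. RefSeq windows of 300 bases, from 250 before to 50 after a transcript start in GRCm38.p6, were found for all 6 genes, 9 windows in all. The capitals in the 3 lines below mark 3 motifs. The first is the TATA box, searched as TATAAA. The second is the CCAAT box, which lies on the opposite strand in these windows and so reads ATTGG. The third is a pair of GAAA words with 3 bases of any kind between them, which lies on the opposite strand too and begins and ends with TTTC as printed.
Aire, chr10:78043561-78043860, minus strand: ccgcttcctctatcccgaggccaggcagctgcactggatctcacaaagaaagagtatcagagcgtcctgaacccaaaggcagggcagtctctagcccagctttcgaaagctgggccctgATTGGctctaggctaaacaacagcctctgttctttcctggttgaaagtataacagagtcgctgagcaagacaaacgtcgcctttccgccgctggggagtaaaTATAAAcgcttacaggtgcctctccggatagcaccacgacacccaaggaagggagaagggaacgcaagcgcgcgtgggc
Sp100, first of its 2 windows, chr1:85649738-85650037, plus strand: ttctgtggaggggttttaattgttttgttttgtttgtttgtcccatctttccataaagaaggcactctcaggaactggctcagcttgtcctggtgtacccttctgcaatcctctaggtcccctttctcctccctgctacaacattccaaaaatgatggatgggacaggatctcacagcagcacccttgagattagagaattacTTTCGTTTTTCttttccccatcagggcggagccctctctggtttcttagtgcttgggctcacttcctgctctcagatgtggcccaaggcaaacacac
Sp110, second of its 2 windows, chr1:85598761-85599060, minus strand: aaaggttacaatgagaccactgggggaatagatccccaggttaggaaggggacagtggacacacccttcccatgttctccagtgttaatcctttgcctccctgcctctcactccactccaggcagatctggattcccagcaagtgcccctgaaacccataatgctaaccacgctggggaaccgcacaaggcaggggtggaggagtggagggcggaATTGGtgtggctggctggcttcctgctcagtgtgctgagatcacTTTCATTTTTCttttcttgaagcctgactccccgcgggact

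Each motif was searched on both strands, and the GAAA pair with 3 bases between was chosen after the sequences were seen. In the Aire window TATAAA began 29 bases before the start and the reversed CCAAT box 131 bases before it. TATAAA occurred in 13.6% and CCAAT in 37.4% of all 32851 windows. The GAAA pair lay in both Sp100 windows and in the second Sp110 window, beginning 47 bases before the start in the first Sp100 window and at base 10 of the transcript in that Sp110 window, and 2.75% of all windows held it. The longest identical stretch of the Sp100 and Sp110 windows, 11 bases, overlaps it. The same pair with 2 bases between, found in 3.44% of all windows, was in none of the 9 windows. These matches describe letters only.

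All signals below are linear intensities after the arrays were brought to a common median. A floor of 9.58, the 20th percentile of all values, was applied before differences were taken on the log2 scale. Array medians ranged from 53.8 to 65.3 as deposited. Of the dendritic cell markers, some of mature cells were bright on every array, with Ccr7, a homing receptor, between 8241 and 14752 and Fscn1, an actin-bundling protein, between 9491 and 12476. Others of the list were dimmer, with Itgax between 77.2 and 282 and Flt3 between 332 and 641. Of 5 spleen markers, Spic, a factor of red pulp macrophages, lay between 1238 and 2443 in spleen and between 634 and 1544 in lymph node. The iron exporter Slc40a1 lay between 82.3 and 835 in spleen and between 4.03 and 61.7 in lymph node. Madcam1, a vascular addressin, overlapped between the tissues, and Tlx1 and Nkx2-5, transcription factors of the developing spleen, reached at most 36.2. Of 4 lymph node markers Glycam1, a mucin of high endothelial venules, reached 839 on knockout lymph node array A but lay between 52.6 and 409 elsewhere. The 409 was wild-type spleen array B, and the other lymph node arrays lay between 52.6 and 82.5. Prox1 was highest on wild-type spleen array B, at 225, and Lyve1 on knockout spleen array B, at 114. Fut7 reached at most 32.4, so these markers did not separate the tissues. Xist, a long RNA made from the silenced X chromosome, was 5527 and 14.6 in knockout spleen, 7624 and 4585 in wild-type spleen, 6355 and 23.1 in knockout lymph node, and 7090 and 3565 in wild-type lymph node, so the arrays of a group were unlike in sex-linked signal. The spleen and lymph node arrays of 1 genotype and letter were alike in it: both knockout B arrays were low in Xist, and both wild-type A arrays were low in the Y-linked Eif2s3y, at 21.2 in spleen and 3.80 in lymph node. Whether such arrays came from the same animals is not known, and if they did, values averaged over tissues rest on fewer independent samples than arrays. Over all arrays the B cell markers summed to between 221 and 1800 and the T cell markers to between 489 and 2157. The dendritic cell markers summed to between 38373 and 54256. With sums this unequal, the samples are not taken here as whole spleen or lymph node. Whether cells were enriched or sorted beforehand was not tested. Since each array measured RNA from many cells together, fewer cells of a type and less RNA per cell cannot be told apart.

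Aire was the member with the clearest difference, lower on every knockout array than on any wild-type array. Its signal was 1009 on array A and 2376 on array B in knockout spleen, against 5037 and 5204 in wild-type spleen. In lymph node it was 791 and 1137 in knockout, against 3052 and 3535 in wild-type. The highest knockout value, that of spleen array B, still lay below the lowest wild-type value, and no array came near the floor.

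The Aire signal that remained differed between knockout arrays. Relative to the wild-type mean of the same tissue it was 19.7% on array A and 46.4% on array B in knockout spleen, and 24.0% and 34.5% in knockout lymph node. Whether the probe set, 1419241_a_at, covers the sequence removed from the gene is not known here, so this signal cannot be read as functional transcript. By geometric mean the groups ranked, from high to low, wild-type spleen at 5120, wild-type lymph node at 3285, knockout spleen at 1548 and knockout lymph node at 948. The wild-type tissues did not overlap, while the knockout tissues did.

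For Aire, knockout minus wild-type was -1.73 ± 0.47 (SE) on the log2 scale in spleen, with a 95% interval from -2.84 to -0.61, and -1.79 ± 0.47 in lymph node, from -2.91 to -0.67. Averaged over tissues it was -1.76 ± 0.33, from -2.55 to -0.97. Among 26479 probe sets tested together, 75 had a lower averaged difference than Aire and 94 had a smaller p. The adjusted p by limma was 0.482 in spleen, 1 in lymph node and 0.319 averaged, so Aire was not called. With a trended robust prior the averaged adjusted p was 0.0339. When the genotypes were exchanged among the arrays of each tissue, the exact permutation p was 0.0556 (both sides), the smallest that 36 assignments allow. This takes the spleen and lymph node arrays as independent. If those of 1 genotype and letter came from the same animals, 6 joint assignments are left, and the exact permutation p was 0.333, again the smallest they allow. With each such pair averaged into 1 sample the Aire difference was -1.76 ± 0.40 and its limma adjusted p 0.760. Both were added after the data were seen. The spleen difference was -1.11 without knockout array A and -2.34 without knockout array B. The knockout effect was nearly equal in the 2 tissues, with a difference between them of 0.07 ± 0.67, although the interval from -1.51 to 1.65 allows large differences either way.

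Knockout arrays lay below all wild-type arrays of their own tissue, in both tissues, for 5.0% of tested probe sets. Among the 7 tested member probe sets Aire was the 1 that did so. By limma at an adjusted p under 0.05, 0 of the 7 were called in any of the 5 comparisons made, where 0.00755% of all tested probe sets were called for knockout against wild-type in spleen, 0.0113% in lymph node, 0.0113% averaged over tissues, 0% for the difference between tissues in the knockout effect and 0% for spleen against lymph node. At an unadjusted p under 0.05 the count was 1 of 7, Aire, in each of the first 3 comparisons, where the background was 7.90% in spleen, 2.94% in lymph node and 7.18% averaged. It was 0 of 7 for the difference between tissues, against a background of 3.57%, and 1 of 7, an Sp110 probe set described below, for spleen against lymph node, against 9.59%.

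**Figure D1:**
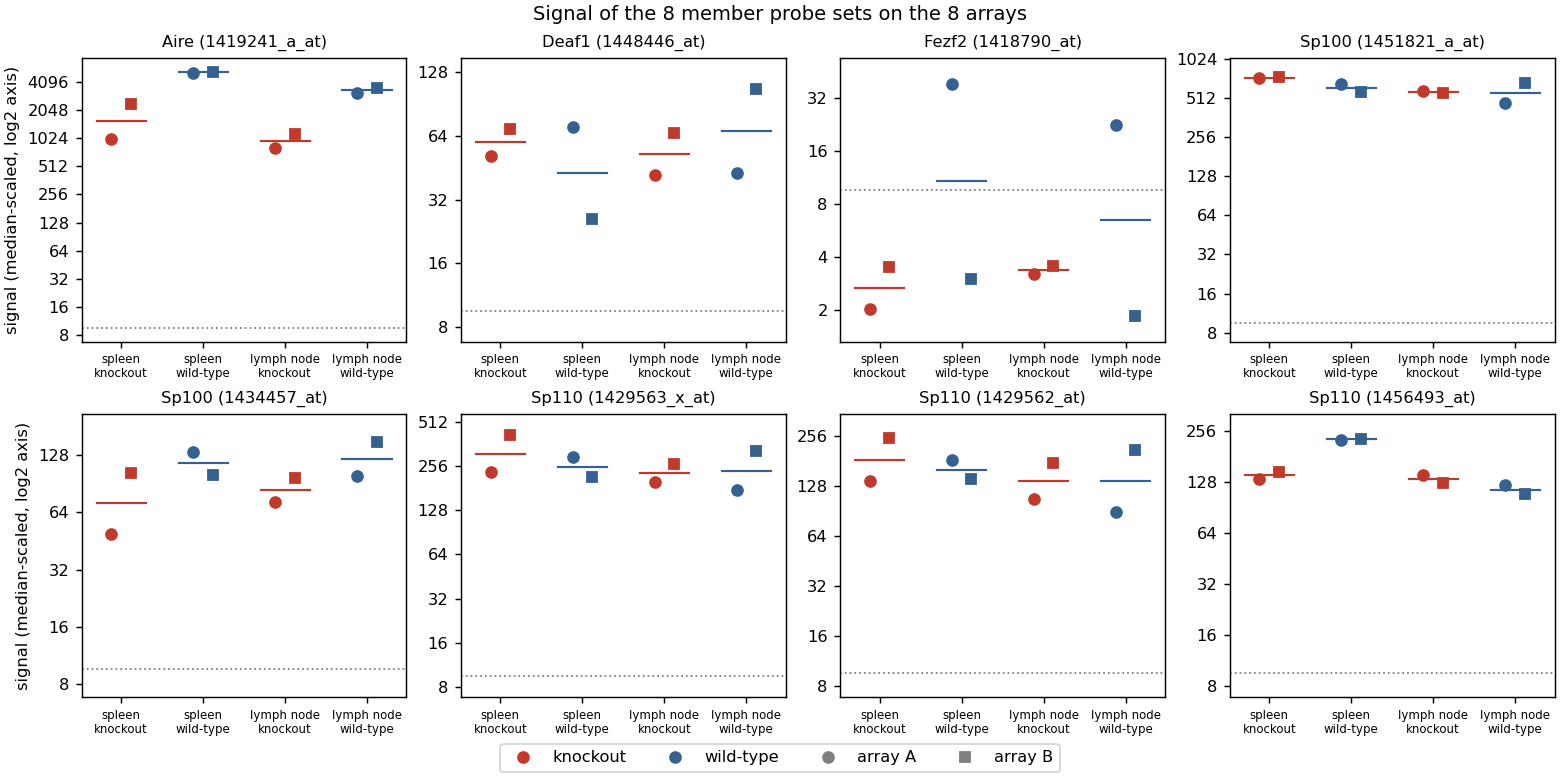
Signal of each member probe set on the 8 arrays, on log2 axes that differ between panels; circles are arrays A, squares arrays B, bars the geometric mean of the 2 plotted signals, and the dotted line the floor of 9.58. Aire is below every wild-type array on all knockout arrays, Fezf2 is above the floor on the wild-type A arrays, and the last Sp110 panel has its high values in wild-type spleen.

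Markers of other cell types were set beside Aire on the same arrays. Of 7 measured epithelial and thymic epithelial markers 4 were tested and 3 of these were lower in knockout on average. The summed signal of the list ranged from 1136 to 3945 on knockout arrays and from 2790 to 4184 on wild-type arrays, with overlap in spleen and none in lymph node. Epcam, an epithelial adhesion molecule, had signals of 1147 and 1943 in knockout spleen against 2155 and 2468 in wild-type spleen, and of 428 and 935 in knockout lymph node against 1416 and 1988 in wild-type lymph node. Its averaged difference was -1.02 ± 0.35 (limma adjusted p = 0.623). Foxn1, the master regulator of thymic epithelium, lay between 14.2 and 49.2 on all arrays, and Psmb11, a proteasome subunit of cortical thymic epithelium, was at or under the floor on 4 of 8 arrays.

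The dendritic cell list had 5 of 7 tested markers lower in knockout on average. Its summed signal ranged from 38373 to 45862 on knockout arrays and from 44183 to 54256 on wild-type arrays. Within each tissue the genotypes did not overlap in this sum. Knockout spleen had 39649 to 45862 against 48326 to 51012 in wild-type spleen, and knockout lymph node 38373 to 43324 against 44183 to 54256. The sum consists mostly of bright markers such as Ccr7, Fscn1 and H2-DMb2. How often such sums separate was not counted, so this order is a description. The dimmer Itgax was higher in knockout spleen, at 282 and 212 against 124 and 77.2 in wild-type spleen. In lymph node it was 177 and 98.5 in knockout against 269 and 133 in wild-type. Flt3 overlapped between genotypes in both tissues. The macrophage list had 8 of 8 markers higher, with sums from 3129 to 22576 in knockout and from 2121 to 7818 in wild-type, which overlap in both tissues. Of the tested markers in these lists, 0 were called by limma, and at an unadjusted p under 0.05 the count was 1 epithelial marker lower, 3 macrophage markers higher and 0 dendritic cell markers. Over all 26479 tested probe sets that count was 861 higher and 1041 lower. Of the macrophage markers, Adgre1, Siglec1 and Cd5l passed the filter on dim probe sets through knockout arrays alone. Mertk exceeded that filter on too few wild-type arrays to pass without the knockout arrays. The higher values of these macrophage markers therefore carry no weight as support. The count of 8 of 8 includes them, and the count of 3 may include them. B cell and T cell markers were split, with 3 of 5 lower and 2 of 5 higher in each list. The B cell marker Ms4a1 passed the filter through knockout arrays alone. B cell sums lay from 306 to 1800 in knockout and from 221 to 793 in wild-type, and T cell sums from 489 to 2157 and from 534 to 1388. All of these were under the dendritic cell sums. Of the plasma cell markers 4 of 4 were higher, with sums from 932 to 10854 in knockout and from 481 to 4357 in wild-type. The part of these markers in the Aire difference was not tested.

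The named genes whose profile over the 8 arrays came nearest to that of Aire were Lif, Csdc2, Hfe and Hoxc5. Each profile was centred on its own mean, and likeness was measured as the root mean square difference from Aire on the log2 scale, where the Aire profile itself has a spread of 1.0. The distance was 0.21 for Lif, a cytokine of the interleukin-6 family, 0.25 for Csdc2, a cold shock domain RNA-binding protein, 0.27 for Hfe, an MHC class I-like regulator of iron uptake, and 0.27 for Hoxc5, a homeobox factor. Lif had signals of 52.3 and 82.0 in knockout spleen against 176 and 182 in wild-type spleen, and 23.7 and 39.7 in knockout lymph node against 111 and 123 in wild-type lymph node. Hfe had 662 and 1086 in knockout spleen, below the 1828 and 2179 of wild-type spleen. In knockout lymph node it had 362 and 665, below the 1181 and 1851 of wild-type lymph node. Lif, Csdc2, Hfe and Hoxc5 were chosen for this likeness, so their lower knockout values are a description, and none was called for the averaged difference (limma adjusted p from 0.291 to 0.432). Hoxc5 was at or under the floor on 3 of 4 knockout arrays.

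**Figure D2:**
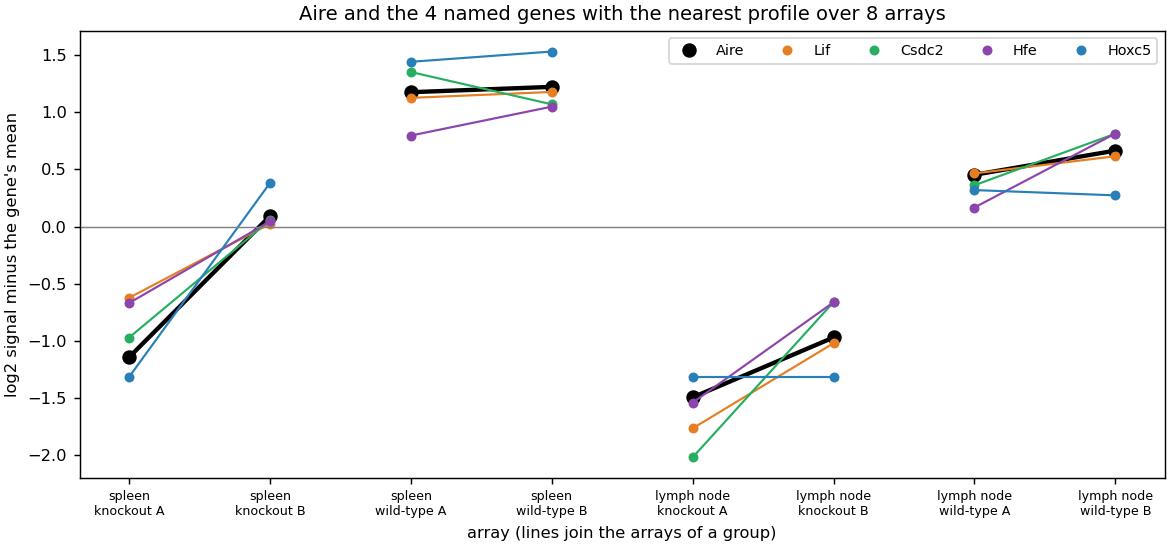
Log2 signal of Aire (black) and of the 4 named genes with the nearest profile, each minus its own mean over 8 arrays, with values under the floor of 9.58 raised to it; lines join the arrays of a group. In all 5 genes the knockout arrays lie below both wild-type arrays of their tissue, and spleen array B lies above spleen array A in the knockout.

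The other regulators of tissue antigens were dim. Fezf2 (1418790_at) had signals of 2.02 and 3.51 in knockout spleen against 38.2 and 3.02 in wild-type spleen. Knockout lymph node had 3.19 and 3.54 against 22.4 and 1.86 in wild-type lymph node. It thus lay under the floor on 6 of 8 arrays, above it on the wild-type A arrays alone, and under the filter on dim probe sets (the pooled median of 59.0, to be exceeded on at least 2 arrays) everywhere. The wild-type A arrays were also those with the lowest Eif2s3y, which was 521 to 1988 on the other arrays, and the part of this in the Fezf2 values was not tested. Fezf2 was not tested in the fit over all probe sets, and the exact permutation gave p = 0.5.

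Deaf1 (1448446_at) was measured near the pooled median, at 51.6 and 68.8 in knockout spleen against 70.2 and 25.8 in wild-type spleen. Knockout lymph node had 41.8 and 65.9 against 42.5 and 106 in wild-type lymph node. The groups overlapped in both tissues, and the spread within the wild-type groups was wider than any difference between group means. Knockout minus wild-type was 0.48 ± 0.64 for Deaf1 in spleen and -0.36 ± 0.64 in lymph node, and 0.06 ± 0.45 averaged (limma adjusted p = 0.989). The averaged interval, from -1.0 to 1.13, reaches 2.19-fold higher in knockout at its upper end. The sign in each tissue depended on wild-type array B, without which it was -0.24 in spleen and 0.30 in lymph node.

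Sp100, the PML body component, was measured by a bright and a dim probe set that did not behave alike. The bright one, 1451821_a_at, had signals of 719 and 737 in knockout spleen against 653 and 568 in wild-type spleen. In lymph node it had 572 and 557 in knockout against 466 and 667 in wild-type. Knockout spleen was thus above wild-type spleen on both arrays, while the lymph node groups overlapped. The share of all probe sets with groups apart in a single tissue was not counted, so this order is a description. The averaged difference was 0.14 ± 0.24 (limma adjusted p = 0.944), with an interval from -0.43 to 0.71.

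The dim Sp100 probe set, 1434457_at, had signals of 49.4 and 103 in knockout spleen against 133 and 101 in wild-type spleen. Knockout lymph node had 72.4 and 97.0 against 99.7 and 150 in wild-type lymph node. The lymph node groups did not overlap and the spleen groups did, by a small margin, which is again a description without a share over all probe sets. Its averaged difference was -0.62 ± 0.33 (limma adjusted p = 0.751), opposite in sign to the bright probe set. The files give no transcript for either beyond an accession, so which Sp100 isoforms each detects is not known here.

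Sp110 had 3 probe sets. Of these, 1429563_x_at and 1429562_at name the same source sequence in the annotation, and their centred profiles differed by a root mean square of 0.13, so they count as 1 observation. The brighter of them had signals of 231 and 414 in knockout spleen against 295 and 214 in wild-type spleen. In lymph node it had 200 and 265 in knockout against 175 and 324 in wild-type. The groups overlapped in both tissues, and the arrays within a group lay further apart than the group means. Its averaged difference was 0.13 ± 0.34 (limma adjusted p = 0.965), with an interval from -0.67 to 0.92, and that of 1429562_at was 0.10 ± 0.39.

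The remaining Sp110 probe set, 1456493_at, had a different pattern and little spread within groups. Its signals were 133 and 146 in knockout spleen against 226 and 230 in wild-type spleen. In lymph node they were 139 and 126 in knockout against 122 and 108 in wild-type. Wild-type spleen stood above all other arrays, while knockout spleen lay at the level of lymph node. Groups that do not overlap in either tissue, in opposite directions, were found for 3.54% of all tested probe sets.

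For 1456493_at knockout minus wild-type was -0.71 ± 0.31 in spleen (limma adjusted p = 0.641) and 0.21 ± 0.31 in lymph node (adjusted p = 1). The difference between tissues in the knockout effect was -0.92 ± 0.44, with an interval from -1.96 to 0.13 and an adjusted p of 1.0 by limma (unadjusted p = 0.0767), so the opposite directions were not shown to differ. Spleen minus lymph node averaged over genotypes was 0.53 ± 0.22 (unadjusted p = 0.0474, limma adjusted p = 0.513). In wild-type arrays alone the spleen level was 1.98-fold that of lymph node, and in knockout arrays 1.05-fold. The profile of 1456493_at differed from those of the other Sp110 probe sets by root mean squares of 0.54 and 0.58, so the 3 probe sets of Sp110 disagree.

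**Figure D3:**
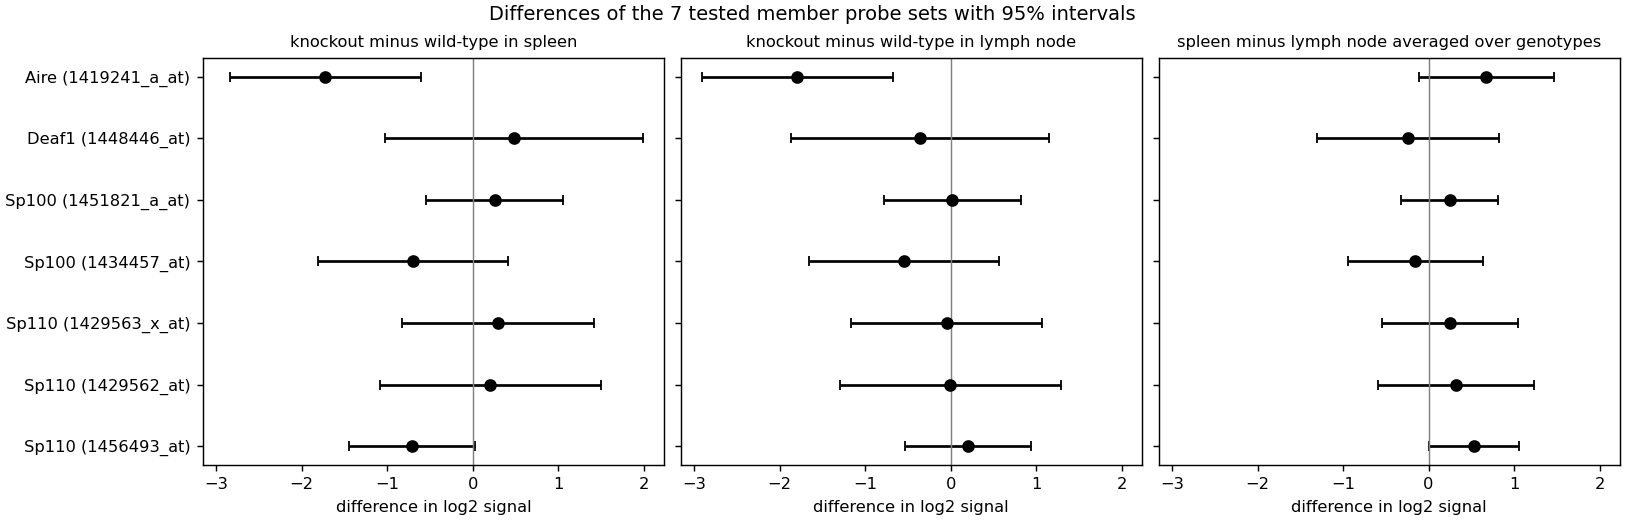
Differences in log2 signal of the 7 tested member probe sets, with 95% intervals from the limma fit, for knockout minus wild-type in spleen (left) and lymph node (middle) and for spleen minus lymph node averaged over genotypes (right). The Aire intervals lie below 0 in both tissues, and those of the other genes include 0 except for Sp110 1456493_at between tissues, whose lower bound is 0.01.

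Between tissues, Aire was higher in spleen than in lymph node by 0.67 ± 0.33 averaged over genotypes, 1.60-fold, with an interval from -0.12 to 1.46 (limma adjusted p = 0.590). The ratio was 1.63-fold in knockout and 1.56-fold in wild-type. For the bright Sp100 probe set the difference was 0.25 ± 0.24, for the dim one -0.16 ± 0.33, for Sp110 1429563_x_at 0.25 ± 0.34 and for Deaf1 -0.24 ± 0.45. The limma adjusted p of these 4 lay between 0.806 and 0.926.

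Related genes were taken as lists, each gene by its brightest probe set, and 0 genes of any list were called for the averaged knockout effect by limma. Of other SAND or SAND-like genes 4 of 7 were measured and tested, all 4 with lower averaged values in knockout. The median difference was -0.22, beside -0.07 over all tested probe sets. The lowest was Skil, a SMAD co-repressor, at -0.32 ± 0.26. Gmeb1 and Gmeb2, glucocorticoid modulatory element binding proteins, were at -0.17 and -0.27. Ski was at -0.0129 ± 0.33 averaged, with 0.33 in spleen and -0.36 in lymph node, so it was not lower in both tissues. The share of all probe sets with a lower averaged value was not counted, so the common sign of the 4 is a description.

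Of 9 tested PML body partners of Sp100, 3 were higher and 6 lower in knockout on average, with a median of -0.03. Pml itself, the scaffold of the body, had the smallest p, at 0.43 ± 0.32 (limma adjusted p = 0.821), followed by Sumo3 at -0.21 and the chromatin remodeller Atrx at -0.22.

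The interferon response list holds genes that, like Sp100 and Sp110, interferon induces. Of its 18 tested genes 13 were higher and 5 lower in knockout on average, with 6 higher and 1 lower at an unadjusted p under 0.05, and the median was 0.26. Over all 26479 tested probe sets 861 were higher and 1041 lower at that p, and the median was -0.07. The 1 lower gene of the list, Mx1, was at -1.06 ± 0.31 (limma adjusted p = 0.539) and was named after its values were seen. The GTPase Iigp1 had signals of 293 and 157 in knockout spleen against 34.0 and 1.28 in wild-type spleen, and 360 and 217 in knockout lymph node against 62.7 and 20.8 in wild-type lymph node. Its wild-type spleen array B lay under the floor. The GTPase Igtp had an averaged difference of 1.34 ± 0.26, and Rtp4, a receptor transporter, 1.69 ± 0.39. Rtp4 and Oasl1, an oligoadenylate synthetase-like gene chosen after its values were seen, exceeded the filter of 59.0 on knockout arrays alone. They had to differ, so their differences carry no weight as support. Irf7 and Oasl2, also named after their values were seen, and Iigp1 exceeded it on too few wild-type arrays to pass without the knockout arrays. Their differences carry no weight as support either. Of the 6 higher genes counted above only Igtp passed on its wild-type arrays alone, and the list median includes the others. The limma adjusted p was 0.291 for Iigp1, 0.345 for Igtp and 0.432 for Rtp4. Over the same arrays the averaged differences of the 5 probe sets of Sp100 and Sp110 lay between -0.62 and 0.14. The macrophage sums given above were highest on the knockout A arrays and overlapped between genotypes in both tissues, and their part in the interferon values was not tested.

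In the thymus Aire is induced through RANK, CD40 and the lymphotoxin receptor, which signal to NF-kB. Of 10 tested genes of this list 5 were higher and 5 lower in knockout on average, with a median of -0.08, beside -0.07 over all tested probe sets. Tnfsf11, the RANK ligand, had signals of 146 and 61.9 in knockout spleen against 11.7 and 0.93 in wild-type spleen, and of 136 and 110 in knockout lymph node against 330 and 63.7 in wild-type lymph node (limma adjusted p = 0.650 averaged). Ltb, a lymphotoxin subunit, was at -0.80 ± 0.34 and Map3k14, the NF-kB-inducing kinase, at -0.57 ± 0.28. The receptor RANK itself, Tnfrsf11a, was at -0.26 ± 0.38, and it is given here as the entry point of the pathway and was chosen after its values were seen.

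The thymic targets of Aire and Fezf2 were mostly dim. Of 8 measured targets of Aire 4 passed the filter, and Csn2, a milk casein, passed it through its knockout arrays alone, so its difference carries no weight as support. Csn2 had signals of 96.9 and 28.9 in knockout spleen against 0.76 and 0.49 in wild-type spleen, and of 164 and 152 in knockout lymph node against 3.85 and 5.56 in wild-type lymph node. Pcp4, a calmodulin regulator, was at 1.81 ± 0.72 and Sst, somatostatin, at 0.39 ± 0.79 on average. Pcp4 would not have passed the filter without its knockout arrays, so its difference carries no weight as support either. Ins2, the insulin gene whose thymic expression depends on Aire, did not pass the filter and lay between 2.97 and 49.2, highest on wild-type spleen array A. Of 6 measured targets of Fezf2 3 were tested, and Maoa, Krt10 and Ttr had averaged differences of -0.44, -0.86 and 0.42, with limma adjusted p between 0.840 and 0.886. The Krt10 average joins opposite values, -3.36 in spleen and 1.63 in lymph node. Its knockout spleen array B, at 5.71, lay under the floor. Ttr was at 1.03 in spleen and -0.19 in lymph node. Ttr exceeded the filter on knockout arrays alone, so its difference carries no weight as support.

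**Figure D4:**
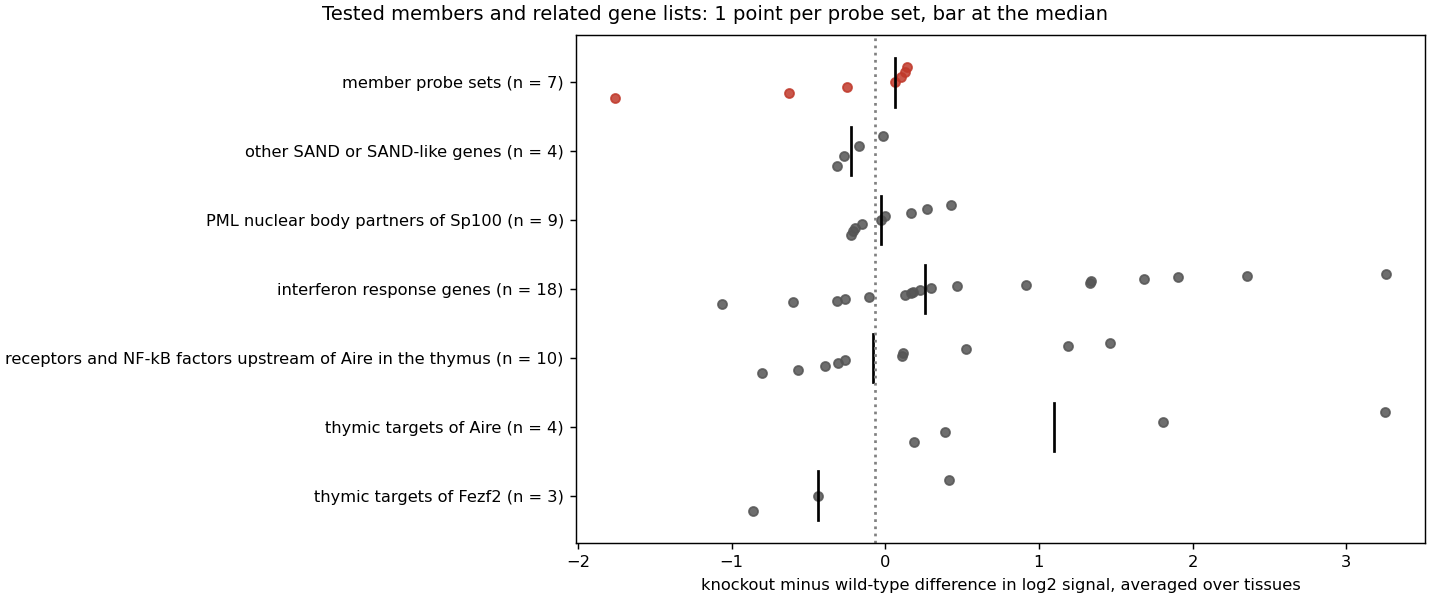
Averaged knockout minus wild-type difference in log2 signal of the 7 tested member probe sets (red) and of the tested genes of 6 related lists (grey); bars are medians and the dotted line is the median of all tested probe sets, -0.07. Aire is the lowest point, at -1.76. The interferon list reaches further to the right than the Sp100 and Sp110 probe sets. Its points furthest to the right, Iigp1, Oasl2, Irf7 and Rtp4, needed their knockout arrays to pass the filter and carry no weight as support. The same holds for Csn2 and Pcp4 among the targets of Aire.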

How the data were processed

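Gene expression was measured on 8 Affymetrix arrays from mouse spleen and lymph node. The values deposited by the authors are intensities, 1 linear signal per probe set, made with MAS5 per the submitters' processing notes (version and detection calls not stated there). The 2% trimmed mean of every array was 250, so the arrays had been scaled.

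Of 45101 probe sets 64 controls were left out. Of the others 34945 had 1 gene symbol, 932 several and 9160 none. Current symbols came from a RefSeq gene table for 34741 of the 34945. Array medians differed by 0.28 (log2), above the tolerance of 0.2, so each array was shifted to their common median, raised to a floor at the 20th percentile and taken to log2. The 26479 probe sets above the pooled median of 59.0 on at least 2 arrays were tested, each on its own. R 4.3.3 and limma 3.58.1 fitted 1 mean per group to all 8 arrays (4 residual and 3.05 prior degrees of freedom), with Benjamini-Hochberg adjustment over all 26479 and calls at 0.05. The fit was tested on simulated data. All member probe sets were named, with up to 3 genes of each list by smallest p and the 4 nearest profiles. The members and lists were chosen with earlier results of these data known. Alternatives covered normalization, floor, filter, probe choice, prior, block, sex-linked signal and single arrays. The number of arrays limits precision.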

Additional observations from a re-analysis of the deposited data

Results flagged for a closer look

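The Sp110 probe set 1456493_at was singled out because its arrays moved in opposite directions in the 2 tissues. In spleen both knockout arrays, at 133 and 146, lay below both wild-type arrays, at 226 and 230, and in lymph node both knockout arrays, at 139 and 126, lay above both wild-type arrays, at 122 and 108. The difference between tissues in the knockout effect was -0.92 ± 0.44 on the log2 scale (limma adjusted p = 1.0). It lay between -1.0 and -0.83 under all 18 alternatives run for it. The other Sp110 probe sets did not show this order. Groups apart in both tissues, in opposite directions, were found for 3.54% of all tested probe sets. The limma unadjusted p of the difference between tissues was 0.0767, so the opposite directions were not shown to differ.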

How the results depend on the processing

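No member changed its call under any alternative except Aire, whose averaged difference passed with a trended robust prior. Its difference lay between -2.34 and -1.11 in spleen and between -2.05 and -1.53 in lymph node over the 18 alternatives. The number of probe sets called over the whole array was small and moved. It was 2 in spleen, and 0 with a filter on all 8 arrays or with the brightest probe set of each gene and 4 with a trended robust prior. In lymph node it was 3, and 0 under each of the first 2 of these and between 1 and 3 with an array left out, the lowest without either knockout lymph node array. Averaged over tissues it was 3, and 5 with no floor or with a floor at the 40th percentile, 0 with a filter on all 8 arrays or the brightest probe set, 11 with a trended robust prior and between 2 and 7 with an array left out, the lowest without either wild-type lymph node array and the highest without knockout spleen array B. For spleen against lymph node it was 0, and 11 with a filter on all 8 arrays, 65 with a trended robust prior and between 0 and 2 with an array left out, the highest without wild-type spleen array B. The labels do not say what the letters A and B stand for. The correlation of A minus B, over probe sets, was 0.05 between genotypes in spleen and 0.23 in lymph node, and between tissues 0.29 in knockout and 0.07 in wild-type, so the letters were not taken as pairs across groups. The letter as a replicate block gave 2 calls in spleen, 3 in lymph node and 3 averaged, and changed no call of a member. With genotype and letter together as a block, spleen against lymph node gave 0 calls. With the spleen and lymph node arrays of a genotype and letter taken as 1 sample, an alternative chosen after seeing the data, 2 probe sets were called averaged over tissues, 0 for the difference between tissues, and 0 members. The sign of several small differences changed. With an array left out the difference between tissues in the Aire effect ranged from -0.55 to 0.68, and for Deaf1 the knockout effect ranged from -0.24 to 1.21 in spleen, from -1.01 to 0.30 in lymph node and from -0.30 to 0.42 averaged, and the tissue difference from -0.60 to 0.12. For Sp100 the lymph node effect of 1451821_a_at ranged from -0.24 to 0.28 and the tissue difference of 1434457_at from -0.42 to 0.11. For Sp110 1429563_x_at the ranges were -0.12 to 0.72 in spleen, -0.49 to 0.40 in lymph node and -0.10 to 0.35 averaged, and for 1429562_at -0.22 to 0.64, -0.62 to 0.61 and -0.21 to 0.41. With a floor at the 40th percentile the averaged Deaf1 effect was -0.0449. With the Y-linked signal as a covariate it was -0.00793, the lymph node effect of Sp100 1451821_a_at -0.0384, the averaged effect of Sp110 1429563_x_at -0.0360, and that of 1429562_at -0.0865 in spleen and -0.17 averaged. The lymph node effect of 1429562_at was 0.0178 with quantile normalization and 0.0348 with no median shift. The cause was not tested.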

Other observations

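The nearest profiles were also taken for the other members. For Deaf1 they were Zfp318, Sltm, Inca1 and Shc1, at root mean square differences of 0.19, 0.20, 0.26 and 0.27 on the log2 scale, where the Deaf1 profile has a spread of 0.58. For the bright Sp100 probe set they were Ctps2, a CTP synthase, Aldoa, a glycolytic aldolase, Paics, an enzyme of purine synthesis, and Atp10d, at 0.06, 0.08, 0.08 and 0.08, where Sp100 itself has a spread of 0.21. For Sp110 1429563_x_at they were Cert1, a ceramide transporter, Fam71e1, Ccdc186 and the kinase Braf, at 0.10, 0.10, 0.13 and 0.13, where Sp110 has a spread of 0.38. Each distance is over the same 8 arrays and among tested probe sets with a named gene, so small distances are easier to reach for the flatter profiles.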
